A study of Mus musculus with 11 samples.

Results

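The miR-15 and miR-16 family is a set of mature microRNAs (miRs) that carry 1 shared seed, the stretch at bases 2 to 8 that pairs with target messenger RNAs. Its members here are the guide strands mmu-miR-15a, mmu-miR-15b, mmu-miR-16, mmu-miR-195, mmu-miR-322 and mmu-miR-497 (written below without the prefix for mouse), chosen by assay name, and 6 of 6 were present among the 517 miR assays of the study. All 6 were measured below 35 cycles in 11 of 11 samples. Each therefore passed the detection filter in every group, and all 66 values are measured values.

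As background, members of this family bind the messenger RNAs of cell cycle drivers such as cyclins D and E and their kinases, as well as that of the survival factor BCL2, and they slow entry into DNA synthesis. miR-15a and miR-16 are known for the deletion of their locus in human chronic lymphocytic leukaemia, and miR-195 and miR-497 for the exit of heart muscle cells from the cell cycle after birth in mice. In vascular smooth muscle, miR-195 and miR-322 (called miR-424 in humans) have been described as brakes on proliferation, and proliferation of these cells is part of plaque growth.

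The mature sequences show what the members share and where they part, and are given 5′ to 3′ with the seed in capitals.
miR-15a: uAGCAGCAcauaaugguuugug
miR-15b: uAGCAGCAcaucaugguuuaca
miR-497: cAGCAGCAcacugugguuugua
miR-16: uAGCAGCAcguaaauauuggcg
miR-195: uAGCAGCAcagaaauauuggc
miR-322: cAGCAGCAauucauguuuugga
miR-503: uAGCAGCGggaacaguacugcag
miR-103: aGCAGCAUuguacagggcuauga
miR-107: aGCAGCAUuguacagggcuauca
They are RefSeq entries of the mouse assembly GRCm38.p6, in which miR-195 and miR-497 stand as miR-195a-5p and miR-497a-5p, and all 9 names matched an entry. The files do not give the sequence each assay was designed on.

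The 6 members have 1 seed among them, and 10 of the 1679 mature miRs in the RefSeq table carry it. The other carriers, miR-195b, miR-6342, miR-6353 and miR-6419, were not analysed here. Beyond the seed the members fall apart. miR-16 and miR-195 have 19 of 21 aligned positions in common and a run of 10 bases after base 8. miR-15a and miR-15b share 18 of 22 positions and miR-15a and miR-497 share 17 of 22, whereas miR-16 and miR-497 share 11 of 22 and miR-195 and miR-322 share 11 of 21. miR-503, miR-103 and miR-107 are relatives with other seeds. In miR-503 the seed differs from that of the family by A8G, counted from the 5′ end with the base of the family first. In miR-103 and miR-107 the same letters stand 1 base earlier, at bases 1 to 7.

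The members come from 4 loci. On chromosome 14, miR-15a (chr14:61632075-61632096) and the first copy of miR-16 (chr14:61631936-61631957) lie on the minus strand, 139 bases apart by their starts, within the long non-coding RNA gene Dleu2. On chromosome 3, miR-15b (chr3:69009775-69009796) and the second copy of miR-16 (chr3:69009918-69009939) lie on the plus strand, 143 bases apart, within the span of Smc4, which encodes a condensin subunit. miR-497 (chr11:70234730-70234751) and miR-195 (chr11:70235062-70235082) lie 332 bases apart on the plus strand of chromosome 11. miR-322 (chrX:53054306-53054327) and miR-503 (chrX:53054027-53054049) lie 279 bases apart on the minus strand of the X chromosome, within the long non-coding RNA gene C430049B03Rik. Both copies of miR-16 give the same mature sequence, so its assay reads 2 loci together.

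The samples were whole aortas of 11 female apoE-/- mice, which lack apolipoprotein E and form plaques, with 1 mouse per PCR array. The labels describe 4 control mice on regular diet, without atherosclerosis, 4 mice fed a high fat diet for 3 months, with atherosclerotic aortas, and 3 such mice fed for 10 months. Casein made up 19.5% of the high fat diet, crude fat 21% and cholesterol 0.15%. The age in every group is given as 6 to 8 weeks, without a word on whether feeding began or ended then, and how long controls were kept is not stated, so that time on diet and age cannot be told apart. For the 10-month mice the titles and the design text were followed, since their treatment field gives 3 months. All mice lack apolipoprotein E, so no comparison bears on that loss, and whole aorta mixes cell types: fewer cells of a type and less of a miR per cell cannot be told apart.

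A well is read as its threshold cycle, and each later cycle means less template, by a factor close to 2. Of 517 miR assays 322 to 380 were detected per mouse. Replicate 2 of the 10-month group stood apart: the 285 miRs detected in all mice averaged 26.9 cycles there, against 23.2 to 25.3 in the other mice, and the small-RNA controls (U6 and the assays snoRNA135, snoRNA202 and snoRNA429) averaged 20.9 cycles, against 15.6 to 18.1. Values without this mouse, or without another single mouse, are given beside several results that move with it. The smooth muscle markers miR-143 (15.3 to 19.6 cycles) and miR-145 and the endothelial marker pair miR-126-3p and miR-126-5p (up to 21.5 cycles) were detected in 11 of 11 mice. So were miR-133a of striated muscle (15.6 to 19.8 cycles), miR-122 of liver, miR-200a of epithelium, miR-9 of neurons and miR-223 of leukocytes. miR-208 and miR-499 of striated muscle and miR-124 of neurons were found in 4, 1 and 4 mice. Detection alone thus does not single out cells of the vessel wall.

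Across the 11 mice the threshold cycles ran from 15.2 to 19.6 for miR-16 and from 17.97 to 22.1 for miR-195. They ran from 20.6 to 24.6 for miR-15a, from 21.0 to 24.4 for miR-15b, from 22.1 to 25.3 for miR-497 and from 22.8 to 25.9 for miR-322. Assays amplify with different efficiency, so these cycles do not rank the members by amount. Each level below is on a log2 scale, with the array's own average over the 285 miRs that no mouse lacked set to 0, and is compared only within a miR.

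miR-15a, from the Dleu2 locus, had levels of 2.01, 2.24, 2.24 and 2.13 in the 4 control mice, 2.51, 2.78, 1.97 and 1.37 after 3 months, and 2.57, 2.37 and 2.54 after 10 months. Controls were tightly grouped, the 3-month mice were spread on both sides of them, and 3 of 3 mice at 10 months lay above every control. Group means were 2.15 ± 0.11 (SD, n = 4), 2.16 ± 0.63 (SD, n = 4) and 2.49 ± 0.11 (SD, n = 3).

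miR-15b, its paralog from the Smc4 locus, had levels of 1.69, 3.09, 1.76 and 2.81 in controls, 1.75, 2.27, 1.88 and 2.06 after 3 months, and 1.22, 2.49 and 2.21 after 10 months. Control replicates 2 and 4 were the highest of all mice, the 3-month mice all lay below them and above the lowest control, and replicate 1 at 10 months was the lowest of all. The means were 2.34 ± 0.71 (SD, n = 4), 1.99 ± 0.22 (SD, n = 4) and 1.98 ± 0.67 (SD, n = 3), and all groups overlapped.

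miR-16, made from both loci, had levels of 7.34, 8.17, 7.31 and 8.31 in controls, 7.80, 7.41, 7.93 and 8.87 after 3 months, and 8.28, 7.30 and 7.59 after 10 months. The highest value belonged to replicate 4 at 3 months, which had the lowest miR-15a of all mice. Means were 7.78 ± 0.53 (SD, n = 4), 8.00 ± 0.62 (SD, n = 4) and 7.72 ± 0.50 (SD, n = 3), with overlap throughout.

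miR-195, which matches miR-16 over most of its length, had levels of 5.07, 5.73, 5.05 and 5.45 in controls, 5.60, 5.28, 5.12 and 5.21 after 3 months, and 5.15, 4.87 and 5.20 after 10 months. It was the least variable member, with all 11 mice within 0.87 on the log2 scale. The means were 5.32 ± 0.33 (SD, n = 4), 5.30 ± 0.21 (SD, n = 4) and 5.07 ± 0.18 (SD, n = 3).

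miR-497, the neighbour of miR-195, had levels of 1.59, 1.94, 1.20 and 1.02 in controls, 1.09, 1.24, 0.57 and -0.15 after 3 months, and 0.54, 1.61 and 0.83 after 10 months. Replicate 4 at 3 months was the lowest of all mice, and the groups overlapped. The means were 1.44 ± 0.41 (SD, n = 4), 0.69 ± 0.63 (SD, n = 4) and 1.00 ± 0.55 (SD, n = 3).

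miR-322, from the X chromosome, had levels of 0.73, 0.23, 0.46 and -0.83 in controls, -0.21, -0.32, -0.94 and -0.81 after 3 months, and -0.44, 1.00 and -0.10 after 10 months. The control group held 1 low mouse, replicate 4, that lay among the 3-month mice, while the other 3 controls lay above all of these. The single value of 1.00 at 10 months belonged to replicate 2, the mouse with late cycles. Means were 0.15 ± 0.68 (SD, n = 4), -0.57 ± 0.36 (SD, n = 4) and 0.15 ± 0.75 (SD, n = 3).

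**Figure D1:**
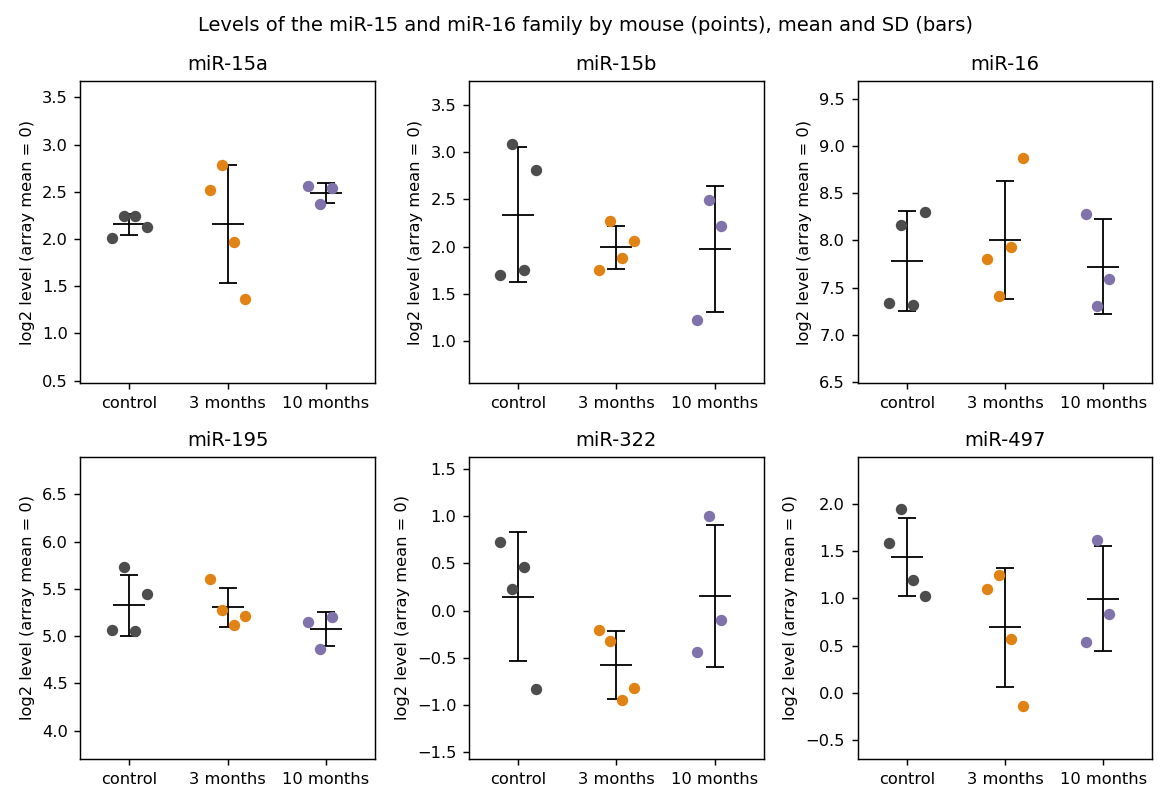
Log2 level of each family member by group (regular diet control, and 3 and 10 months on the high fat diet), with the array mean at 0. Points are mice, bars the mean and SD, and every panel spans the same height. With this centre the 10-month mice lie above all controls in miR-15a, and in the other members each pair of groups overlaps.

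Ordered by group mean, miR-15a was highest at 10 months, then at 3 months, then in controls. miR-15b and miR-195 were highest in controls, then at 3 months, then at 10 months. miR-497 was highest in controls, then at 10 months, then at 3 months. miR-16 was highest at 3 months and lowest at 10 months, and miR-322 was lowest at 3 months with equal means in the other groups. No neighbours in any of these orders differed past the test below.

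Setting mice fed the high fat diet for 3 months against mice on regular diet asks which miRs differ early in plaque disease. The largest differences in the family were those of miR-497 and miR-322, each with a lower mean after 3 months by a factor under 2, and neither passed the test. The log2 fold of miR-497 was -0.75 (SE 0.39, limma adjusted p = 0.635), and that of miR-322 was -0.72 (SE 0.43, limma adjusted p = 0.685). The 95% intervals reached from 3.06-fold lower to 1.09-fold higher for miR-497 and from 3.19-fold lower to 1.17-fold higher for miR-322.

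The remaining members had log2 folds of -0.35 (SE 0.41) for miR-15b, 0.22 (SE 0.40) for miR-16, -0.02 (SE 0.25) for miR-195 and 0.0029 (SE 0.32) for miR-15a, with limma adjusted p from 0.859 to 0.996. For miR-195 the interval was narrow, from -0.58 to 0.54 on the log2 scale, and for miR-15a it ran from 1.62-fold lower to 1.63-fold higher. Leaving out replicate 4 of this group took miR-497 to -0.47 and turned miR-16 to -0.07, and miR-15a and miR-195 lay so close to 0 that leaving out 1 of several mice changed their sign.

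Of 6 members limma called 0 at 3 months, and 0 had an unadjusted p under 0.05. Over all 353 miRs tested the share called was 0%, and the share with an unadjusted p under 0.05 was 8.5%. Groups overlapped in 6 of 6 members, while 5.38% of all tested miRs had none (2.83% higher and 2.55% lower after 3 months). Of the members 2 of 6 had a log2 fold above 0, against 47% of all tested miRs. The median log2 fold was -0.18 over the members and -0.05 over all tested miRs.

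The same question for 10 months of feeding asks which miRs differ late. miR-15a was the only member without overlap between the groups, with a higher level in 3 of 3 mice than in every control (log2 fold 0.33, SE 0.34, a factor of 1.26), and it did not pass (limma adjusted p = 0.732). Over all miRs 15.9% did not overlap in this comparison (6.52% higher and 9.35% lower), so 1 of 6 members is close to the background. This separation was found with the array mean as centre, and relative to the small-RNA control assays the 2 groups overlapped. In replicate 1 at 10 months miR-15a stood at 20.9 cycles and the control assays at 15.6, against 22.0 and 17.4 in control replicate 1. The interval for miR-15a ran from 1.34-fold lower to 2.13-fold higher.

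The other log2 folds at 10 months were -0.44 (SE 0.42) for miR-497, -0.36 (SE 0.44) for miR-15b, -0.25 (SE 0.27) for miR-195, -0.06 (SE 0.43) for miR-16 and 0.0067 (SE 0.46) for miR-322. Their limma adjusted p ran from 0.708 to 0.992. miR-195 again had the tightest interval, from 1.82-fold lower to 1.28-fold higher, and that of miR-322 ran from 2.03-fold lower to 2.05-fold higher. Without replicate 2 at 10 months the log2 folds were -0.75 for miR-497, -0.62 for miR-15b, -0.15 for miR-195, 0.15 for miR-16 and -0.42 for miR-322, and none passed. The groups then did not overlap in 2 of 6 members, miR-15a (higher) and miR-497 (lower), against 24.1% of all miRs tested without that mouse.

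Here limma called 0 of 6 members, with 0 at an unadjusted p under 0.05, while 4.53% of all tested miRs were called (0.85% higher and 3.68% lower) and 17% had an unadjusted p under 0.05. A log2 fold above 0 was found in 2 of 6 members and in 50.4% of all tested miRs. The median log2 fold was -0.16 over the members and 0.0049 over all tested miRs, and without replicate 2 at 10 months it was -0.28 and 0.07.

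Between 10 and 3 months of the diet, miR-322 had the largest difference, a higher mean at 10 months at 0.73 on the log2 scale (SE 0.46, limma adjusted p = 0.528). Its interval ran from 1.23-fold lower to 3.38-fold higher, and without replicate 2 at 10 months the log2 fold was 0.29. The other folds were 0.33 (SE 0.34) for miR-15a, 0.31 (SE 0.42) for miR-497, -0.02 (SE 0.44) for miR-15b, -0.23 (SE 0.27) for miR-195 and -0.28 (SE 0.43) for miR-16, with limma adjusted p from 0.697 to 0.989. Without that mouse miR-15b was at -0.29, miR-16 at -0.08, miR-195 at -0.14 and miR-497 at -0.01. limma called 0 of 6 members and 0% of all tested miRs, of which 13% had an unadjusted p under 0.05 against 0 members. In 12.2% of all tested miRs the groups did not overlap (5.38% higher and 6.8% lower at 10 months), against 0 of 6 members. Of the members 3 of 6 had a log2 fold above 0, against 55% of all tested miRs.

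**Figure D2:**
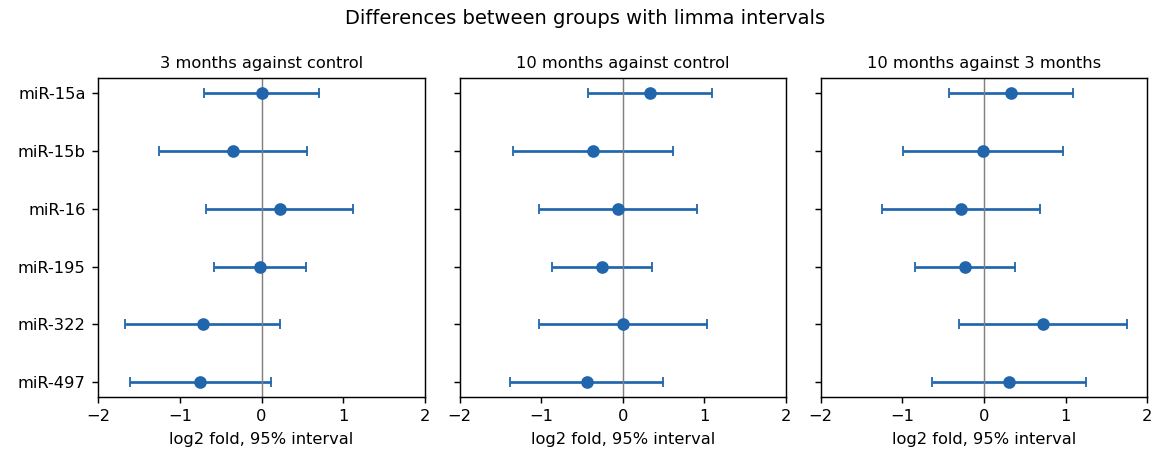
Log2 fold of each member in the 3 comparisons, with the 95% interval of limma (bars). Every interval crosses 0, the widest being those of miR-322 and the narrowest those of miR-195.

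The reference moves all members together. With the small-RNA control assays in place of the array mean, the median of all tested miRs was -0.75 at 3 months against control, and the members lay between -1.44 and -0.47. Relative to that median they lay between -0.69 and 0.28, the same as with the array mean. This follows from the arithmetic, since a new centre shifts every miR of an array alike. Between 10 and 3 months the control assays put the median of all miRs at 0.89 and the members between 0.55 and 1.56, all 6 above 0, and 3 of 6 above the median. At 10 months against control the same reference gave a median of 0.14 and members between -0.30 and 0.47. With the deposited normalized values the members lay between -1.10 and -0.14 at 3 months, between -0.22 and 0.56 at 10 months and between 0.30 and 1.31 for 10 against 3 months. limma called 0 members under each of these references, with smallest adjusted p of 0.356 with the control assays and 0.375 with the deposited values.

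**Figure D3:**
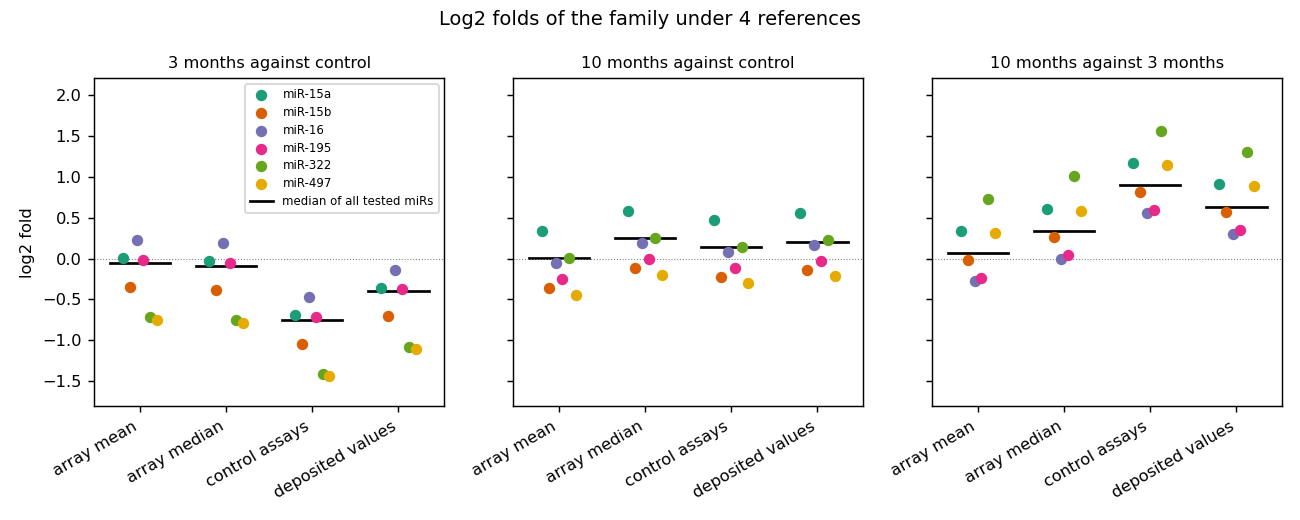
Log2 fold of each member (coloured points) under 4 references, with the median of all tested miRs as a black line: the array mean, the array median, the small-RNA control assays and the deposited normalized values. A new reference shifts all detected miRs of an array alike, so by arithmetic the members move up and down with the line. The line is lowest at 3 months with the control assays (-0.75) and highest with them for 10 against 3 months (0.89).

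Ratios between miRs made at 1 locus do not depend on the reference, and ask whether the products of a locus moved apart. The 2 ratios over miR-16 answer this only in part, since the miR-16 assay reads 2 loci together. The log2 ratio of miR-195 over miR-497 was 3.48, 3.79, 3.86 and 4.42 in controls, 4.51, 4.04, 4.55 and 5.36 after 3 months, and 4.61, 3.25 and 4.36 after 10 months. Of the 3-month mice, 3 of 4 lay above every control and replicate 2 lay below the highest control. The mean was 0.73 higher at 3 months than in controls (exact two-sided permutation p = 0.0571, adjusted p = 0.686 over 12 ratio tests). At 10 months the difference from controls was 0.19 (exact permutation p = 0.686), and 0.60 without replicate 2.

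The ratio of miR-15b over miR-16 was -5.64, -5.08, -5.56 and -5.50 in controls, -6.05, -5.14, -6.05 and -6.81 after 3 months, and -7.06, -4.81 and -5.38 after 10 months. The diet groups were more widely spread than controls and overlapped them. The mean differed from controls by -0.57 at 3 months (exact permutation p = 0.171) and by -0.30 at 10 months (exact permutation p = 0.8). The 10-month difference was 0.35 without replicate 1 and -0.77 without replicate 2 of that group.

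The ratio of miR-15a over miR-16 was -5.33, -5.93, -5.08 and -6.18 in controls, -5.29, -4.63, -5.96 and -7.51 after 3 months, and -5.71, -4.94 and -5.06 after 10 months. Replicate 4 at 3 months held the lowest ratio of all mice. The means differed from controls by -0.22 at 3 months (adjusted exact permutation p = 0.886), which was 0.34 without that replicate, and by 0.39 at 10 months (exact permutation p = 0.286), which was 0.24 without replicate 2 of the 10-month group.

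miR-503 was not detected in control replicate 2 and was set to 35 cycles there, while miR-503* of the same hairpin stood at 27.4 cycles. The ratio of miR-322 over miR-503 in this mouse (9.93) is a lower bound only if the well did not fail, which cannot be told. The other controls were at 3.89, 1.43 and 2.12, the 3-month mice at 1.90, 1.91, 2.74 and 0.41, and the 10-month mice at 0.59, 3.44 and 1.02. The difference from controls was -2.61 at 3 months and -2.66 at 10 months, and without control replicate 2 it was -0.74 and -0.80. Over the 12 ratio tests, 0 passed after Benjamini-Hochberg adjustment, with adjusted p from 0.686 to 0.886. The smallest p that 4 mice against 4, or 3 against 4, can give is 0.0286. After adjustment over 12 tests no single ratio could pass by itself, so the lack of calls does not show that the ratios were unchanged. Between 10 and 3 months the 4 ratios differed by -0.54 to 0.61 with exact permutation p of 0.371 or more, and by -0.93 to 0.46 without replicate 2 at 10 months.

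**Figure D4:**
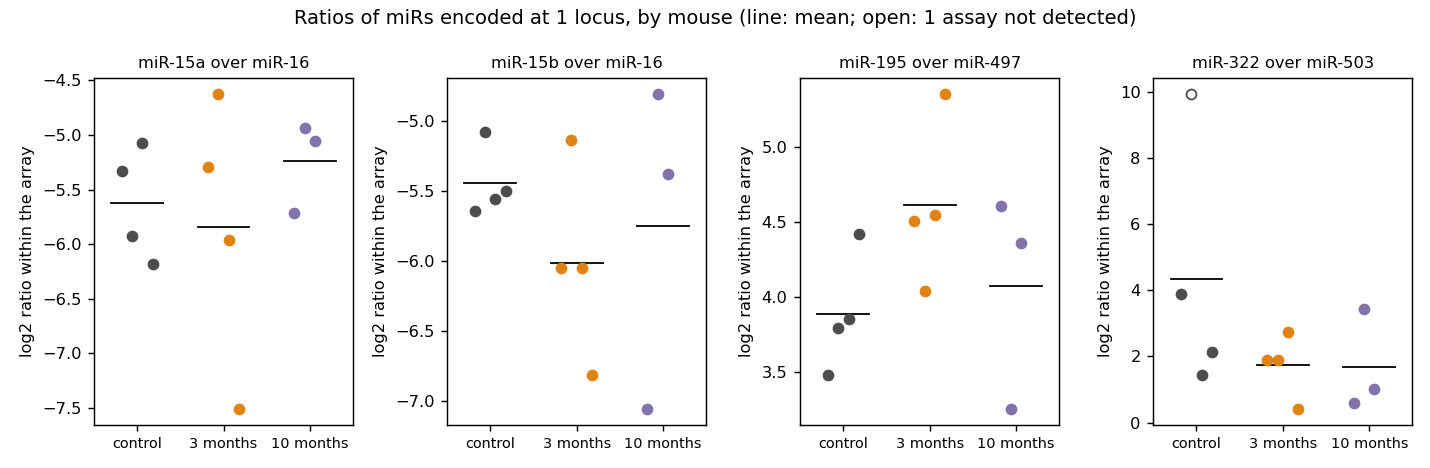
Log2 ratio within the array of 2 miRs encoded at 1 locus, by mouse, with the group mean as a line. The miR-16 assay reads 2 loci together, so the ratios over miR-16 are not those of 1 locus alone. The open point is control replicate 2, where miR-503 was not detected, and is a lower bound only if that well did not fail. The ratio of miR-195 over miR-497 lies above every control in 3 of 4 mice at 3 months.

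Relative to the array mean, the members did not vary as 1 unit over the 11 mice. Among the 15 pairs of members, 10 correlations of the levels were positive and 5 negative, with a median Pearson r of 0.11. All points share the centre of their array, and none of the 15 passed after adjustment. All correlations given here used the array mean as centre, and another centre can change their size and sign. miR-322 and miR-497, from different chromosomes, had the highest value (Pearson r = 0.74, permutation p = 0.0074, adjusted p = 0.111, Spearman rho = 0.75, permutation p = 0.0102, adjusted p = 0.0762, n = 11 mice). It was 0.67 without the 2 mice farthest from the median of miR-322, 0.70 within groups and 0.72 without replicate 2 at 10 months.

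With this centre miR-16 ran opposite to miR-322 (r = -0.71, permutation p = 0.0154, adjusted p = 0.116, rho = -0.78, permutation p = 0.0063, adjusted p = 0.0762, n = 11 mice). The r was -0.60 without the 2 mice farthest from the median of miR-16, -0.72 within groups and -0.66 without replicate 2 at 10 months. Whether the opposite course holds relative to the small-RNA control assays was not tested. The pairs made at 1 locus were not the closest, and in the pairs with miR-16 its assay also reads another locus. miR-15b and miR-16 had r = 0.10 (rho = 0.09), with permutation p = 0.761 and 0.798. miR-195 and miR-497 had r = 0.18 (rho = -0.02), with permutation p = 0.589 and 0.968, and without replicate 2 at 10 months 0.43 (rho = 0.19). miR-15a and miR-16 had r = -0.56 (rho = -0.27), with permutation p = 0.0723 and 0.417, and without the 2 mice farthest from the median of miR-15a r was 0.07, so that the value rests on those mice.

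Passenger strands are the partner arms of the same hairpins, and were measured for miR-15a, miR-15b, miR-16 and miR-322. miR-322* followed its guide, with levels of -0.61, -1.09, -1.73 and -3.07 in controls, -2.70, -2.85, -2.0 and -2.71 after 3 months, and -2.28, -0.60 and -2.52 after 10 months. As with miR-322, control replicate 4 was low and 10-month replicate 2 was high. The 2 strands had Pearson r = 0.82 (permutation p = 0.003, adjusted p = 0.0118 over 4 guide and passenger pairs) and Spearman rho = 0.73 (permutation p = 0.014, adjusted p = 0.0561, n = 11 mice), with r = 0.58 without the 2 mice farthest from the median of miR-322, 0.76 within groups, and 0.75 (rho = 0.60) without replicate 2 at 10 months. For the other 3 pairs r ran from -0.09 to 0.16 and rho from -0.04 to 0.07, with permutation p of 0.63 or more, over 11 mice for miR-15a and miR-16 and the 10 mice in which miR-15b* was detected.

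miR-16* had levels of -4.37, -4.34, -4.54 and -4.75 in controls and -5.20, -5.37, -5.32 and -4.95 after 3 months. The groups did not overlap, with the 3-month mice lower, and the difference did not pass (log2 fold -0.71, SE 0.27, limma unadjusted p = 0.0268, limma adjusted p = 0.441). Of all tested miRs 5.38% did not overlap in this comparison (2.55% lower), and 8.5% had an unadjusted p under 0.05. After 10 months its levels were -4.97, -5.26 and -4.27. The name of the assay does not say which of the 2 hairpins of miR-16 this arm comes from. Of the 6 listed passenger strands 4 had an assay, 4 were tested and 0 passed in any of the 3 comparisons. The other log2 folds at 3 months were -0.94 for miR-322*, -0.19 for miR-15a* and 0.19 for miR-15b*.

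The miR nearest to miR-15b in its pattern over mice was miR-451, a miR of red blood cells, with Pearson r = 0.95 (rho = 0.93) over 11 mice. It was the highest of 279 other miRs detected in all mice, followed by miR-93 at 0.94 and miR-18a at 0.83. The levels of miR-451 were 2.71, 4.75, 2.63 and 4.87 in controls, 2.88, 3.81, 2.94 and 3.41 after 3 months, and 2.03, 3.71 and 4.22 after 10 months. The same 2 controls were high in both miRs, and 10-month replicate 1 was the lowest in both. Within groups r was 0.95. Of the 3 erythroid markers listed (miR-451, miR-486 and miR-144), 2 had an assay. miR-486 was detected in 8 mice, in which its r with miR-15b was 0.76 (rho = 0.74). It was not detected in control replicates 1 and 2 and in replicate 2 at 10 months, whose miR-15b levels were 1.69, 3.09 and 2.49. The mouse with the highest miR-15b, control replicate 2, had no detected miR-486. It also gave no amplification for let-7f, which stood at 20.4 to 25.9 cycles in the other mice. A failed well and low template cannot be told apart there. The mean level of the 2 markers, with undetected wells at 35 cycles, ran from -4.14 to 2.15 in controls, from 0.35 to 1.38 after 3 months and from -2.18 to 1.03 after 10 months. The part of red blood cells in the level of miR-15b was not tested. With miR-451 the r was 0.15 for miR-16, 0.0063 for miR-15a, 0.47 for miR-195, -0.08 for miR-322 and 0.31 for miR-497.

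By the same measure miR-15a was nearest to miR-27b (r = 0.93), miR-221 (0.92) and miR-27a (0.84). miR-16 was nearest to miR-200c (0.78), miR-133a (0.72) and miR-187 (0.71), and miR-195 to miR-26a (0.83), miR-27a* (0.82) and miR-376b (0.72). miR-322 was nearest to miR-350 (0.92), its own passenger strand (0.82) and miR-335-3p (0.78), and miR-497 to miR-455 (0.90), miR-301a (0.88) and miR-103 (0.88). These are the highest of 279 values each, over 11 mice that share their array centre, and are descriptions. No 2 members had a nearest miR in common.

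**Figure D5:**
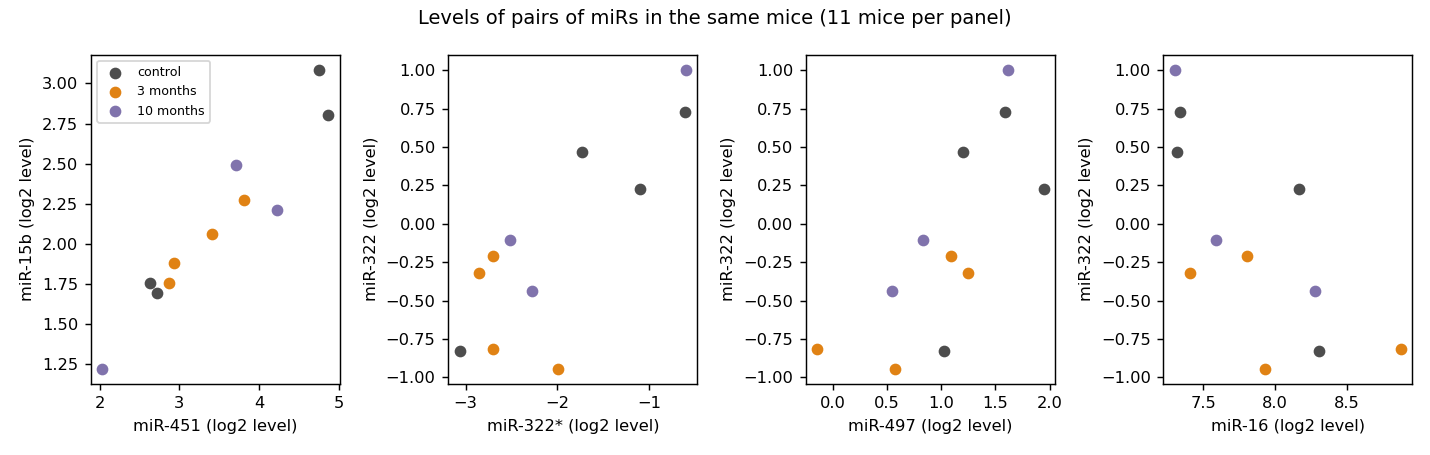
Log2 levels of miR-15b against miR-451 and of miR-322 against miR-322*, miR-497 and miR-16, in the same 11 mice coloured by group. miR-15b rises with miR-451 across all 3 groups (r = 0.95), miR-322 lies higher where its passenger strand and miR-497 are higher (r = 0.82 and 0.74) and lower where miR-16 is higher (r = -0.71).

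Among the X-linked neighbours of miR-322, 8 of 9 listed miRs had an assay and 5 were tested: miR-503, miR-503*, miR-450a-5p, miR-542-3p and miR-542-5p. miR-351 was detected in 6 mice, miR-450b-5p in 1 and miR-450a-3p in 0, too few to be tested. miR-503 and miR-503* are arms of 1 hairpin, as are miR-542-3p and miR-542-5p, so the 5 are not independent values. None of the 5 passed in any comparison. At 3 months against control 4 of 5 had a negative log2 fold, as miR-322 did, while 47% of all tested miRs were above 0. These were miR-542-3p at -0.74 (SE 0.38), miR-450a-5p at -0.72 (SE 0.58), miR-503* at -0.59 (SE 0.44) and miR-542-5p at -0.02 (SE 0.45). miR-503, the closest neighbour of miR-322 in the list, was at 1.89 (SE 1.55), and at 0.05 without control replicate 2. At 10 months against control 4 of 5 were positive, against 50.4% of all tested miRs. Their median was 0.51, and 0.08 without replicate 2 at 10 months. Between 10 and 3 months 5 of 5 were positive, from 0.50 to 1.10, against 55% of all tested miRs. However, miR-542-3p was not detected in replicate 2 at 10 months and stood at the 35-cycle limit there. miR-503* was at 1.10 (SE 0.47, limma unadjusted p = 0.0415, limma adjusted p = 0.353). The median of the list was then 0.78, against 0.06 over all tested miRs. Without replicate 2 at 10 months miR-503* was at 0.63 (limma adjusted p = 0.644), and the median was 0.63 over the list and 0.0058 over all tested miRs. In that fit 5 of 5 were positive, against 50.7% of all miRs tested.

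The relatives with other seeds also passed no test. miR-103, which lies in introns of pantothenate kinase genes like miR-107, had log2 folds against control of -0.49 (SE 0.32) after 3 months and -0.51 (SE 0.35) after 10 months. miR-107 was at 0.27 (SE 0.43) and 0.90 (SE 0.46, limma adjusted p = 0.408), and 3 of 3 mice at 10 months lay above every control. Of all tested miRs 15.9% did not overlap in that comparison (6.52% higher). Without replicate 2 at 10 months the log2 fold of miR-107 at 10 months was 0.50 and the groups overlapped. miR-503 was at 1.89 (SE 1.55) and 2.67 (SE 1.67), with control replicate 2, in which it was not detected, kept at the limit. Without that mouse these values were 0.05 (SE 0.71) and 0.84 (SE 0.76).

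Other miRs known to hold back the cell cycle (the let-7 family, miR-34 and miR-449, miR-26 and miR-24) had 17 assays of 18 listed, of which 15 were tested. miR-34b-5p had no assay, and its hairpin was read through the other arm, miR-34b-3p. In this list 0 rose and 0 fell in each comparison. The smallest adjusted p was that of miR-34b-3p, the 3p arm of a hairpin of the p53-induced miR-34 family, at 10 months against control (log2 fold 1.65, SE 0.48, limma adjusted p = 0.0764), followed by miR-34a (1.30, SE 0.47, limma adjusted p = 0.162) and miR-26a (-0.75, SE 0.31, limma adjusted p = 0.245). In these 3 of the 15 tested the groups did not overlap, a share of 20% against 15.9% of all tested miRs, and the highest miR-26a at 10 months (6.57) lay just under the lowest control (6.59). Without replicate 2 at 10 months the adjusted p of the 3 were 0.206, 0.351 and 0.623, and miR-26a was at -0.53. The list had a median log2 fold of 0.32 after 3 months and 0.04 after 10 months of feeding, relative to regular diet, and of -0.24 between the diet groups. Over all tested miRs these were -0.05, 0.0049 and 0.06. Log2 folds above 0 were found in 12 of 15 at 3 months against control, where 47% of all tested miRs had them. They were found in 8 of 15 at 10 months (50.4%) and in 4 of 15 between the diet groups (55%). Between the diet groups 4 of 15 did not overlap, a share of 26.7% against 12.2% of all tested miRs. Without replicate 2 at 10 months the median of the list was -0.17 at 10 months against control and -0.47 between the diet groups. Over all miRs then tested it was 0.07 and 0.0058. Between the diet groups 5 of 15 were then above 0, against 50.7%, and 6 of 15 did not overlap, against 23.2%. These counts were not tested.

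Of 14 miRs known to favour proliferation (the miR-17 cluster and its paralogs, miR-221, miR-222 and miR-21), 14 were tested and 0 passed in each comparison. At 10 months against control 11 of 14 were positive with a median of 0.23, against 50.4% positive over all tested miRs, and between 10 and 3 months 13 of 14 were positive with a median of 0.31, against 55%. Both counts rest on replicate 2 at 10 months: without it 7 of 14 were positive with a median of -0.01 at 10 months against control, and 8 of 14 with a median of 0.02 between 10 and 3 months, against 54.2% and 50.7% of all miRs then tested. miR-222 had the largest difference from control at 10 months (log2 fold 1.33, SE 0.63, limma adjusted p = 0.334), which was 0.72 without that mouse. At 3 months the median was -0.08, with 6 of 14 positive, and without control replicate 2 it was 0.06, with 9 of 14 positive.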

How the data were processed

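Mature miRs were measured by PCR arrays in total RNA of 11 mouse aortas (mirVana kit, per the labels' protocols). No source used here names the PCR instrument or software. The authors deposited a table of threshold cycles, which is a log2 scale read backwards, with 40 for wells without amplification, and a normalized table on the same log2 scale. The 5687 values of the deposited normalized table equal the cycles minus the mean of snoRNA202 and snoRNA429 within 0.001, as found by setting the tables side by side.

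Minus the cycle number was used, with wells at 35 cycles or later set to 35, and the average over the 285 miRs that every sample had was subtracted from each array. The filter asked for detection in 3 or more samples of any group, and the 353 miRs that passed entered 1 limma model of 3 groups (limma 3.58.1, R 4.3.3, two-sided, 8 residual degrees of freedom), with Benjamini-Hochberg adjustment over all 353 and calls at 0.05. Ratios were tested by exact two-sided permutation and correlations over 11 mice with 100000 permutations. The small number of mice limits precision, and the labels call replicates separate biological samples. Reading cycles as log2 takes amplification to be complete in every cycle, which the files cannot show.

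The members and all lists were chosen with earlier results of these data known. All members were to be named, with the 3 miRs most alike to each, miR-503, miR-103, miR-107 and up to 4 miRs per related list. Not every miR the rule allows is given a value. The fit was tested on simulated data. Alternatives were the array median, the control assays, each assay block by itself, deposited values, a limit of 32 cycles, other filters, a fit of 2 groups, the replicate number as a block and each mouse left out in turn.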

Additional observations from a re-analysis of the deposited data

How the results depend on the processing

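The count of family members called was 0 in all 3 comparisons under all 20 alternatives, and of the 18 log2 folds of members 8 kept their sign under all of them (smallest adjusted p 0.29). With the control assays as centre, at 3 months miR-15a was at -0.69 and miR-16 at -0.47, at 10 months miR-16 was at 0.080, and between 10 and 3 months miR-15b was at 0.82, miR-16 at 0.55 and miR-195 at 0.60. With deposited values these were -0.35, -0.14, 0.17, 0.56, 0.30 and 0.35. With the array median, miR-15a was at -0.031 at 3 months, miR-16 at 0.18 at 10 months, and miR-15b at 0.26 and miR-195 at 0.044 between 10 and 3 months. With each block centred by itself miR-15a was at -0.060 at 3 months and miR-15b at 0.042 between 10 and 3 months. A limit of 32 cycles put miR-322 at -0.0030 at 10 months.

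The replicate numbers were not taken to pair the mice, since no label ties them. The correlation of deviations from the group means was compared between mice of different groups, with a median of 0.21 for the same number and -0.06 for different numbers. It was over 0.1 in 7 of 10 pairs with the same number (-0.36 to 0.47) and in 5 of 30 pairs with different numbers. In 13 of 20 cases, which count each pair from both ends, a mouse was closest to its own number in another group. This is a hint from the data and not from the design, and its cause was not tested. With the replicate block miR-16 was at 0.17 and miR-322 at -0.20 at 10 months and miR-15b at 0.074 between 10 and 3 months, and the block changed no call of a member. The count over all miRs at 10 months was 16, and 6 with the block, 0 with the control assays, 0 with deposited values, 0 in a fit of the 2 groups (29, 39 and 52 miRs at an unadjusted p under 0.05), 29 with only miRs detected in every sample and 1 with no filter. Between 10 and 3 months it was 0, and 5 with each block centred by itself and 1 with deposited values.

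Leaving out each mouse in turn gave 0 to 1 calls over all miRs at 3 months and 1 to 12 at 10 months. At 3 months miR-15a ran from -0.21 to 0.26, miR-16 from -0.071 to 0.42 and miR-195 from -0.12 to 0.12. At 10 months miR-15b ran from -0.62 to 0.017, miR-16 from -0.33 to 0.15 and miR-322 from -0.42 to 0.30. Between 10 and 3 months miR-15b ran from -0.29 to 0.36, miR-16 from -0.56 to 0.0084 and miR-497 from -0.014 to 0.53. The ratio of miR-15a over miR-16 ran from -0.63 to 0.34 at 3 months, that of miR-15b over miR-16 from -0.77 to 0.35 at 10 months and from -0.21 to 0.92 between 10 and 3 months. That of miR-195 over miR-497 ran from -0.079 to 0.60 at 10 months, and that of miR-322 over miR-503 from -0.93 to 0.49 between 10 and 3 months. The values given for the lists, their miRs and the correlations without 1 mouse were chosen after seeing the data. The cause of these shifts was not tested.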

Other observations

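The members differed in how much they varied between mice of 1 group, and the order depended on the reference. Relative to the array mean, the within-group SD was 0.25 for miR-195, with 2.81% of the 285 miRs detected in all mice less variable, and 0.39 for miR-15a, with 17.2% less variable. It was 0.54 for miR-497, 0.56 for miR-16, 0.57 for miR-15b and 0.60 for miR-322, near the median of 0.56 over those miRs. Relative to the small-RNA control assays, miR-16, a miR often used as a reference in such assays, had the smallest SD of the members at 0.55, miR-195 was at 0.66 and miR-322 at 1.19, against a median of 0.90 over the same miRs.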
